A study of Xenopus laevis with 2 samples.

Results

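The zGFAP::EGFP line of *Xenopus laevis* carries EGFP under zebrafish regulatory regions of GFAP, a gene of glial cells, and its spinal cord cells can be separated by fluorescence. Of the 45100 genes listed for these cells, 83 were abundant in EGFP- cells and depleted 10-fold or more in EGFP+ cells. These depleted genes were selected on their measured values: an expected count of at least 1000 in the EGFP- library, and a CPM (the expected count scaled to the library's total) in the EGFP+ library at a ratio of 0.1 or less to that in the EGFP- library. Since the ratio itself chose them, the size of the depletion is given below as a description and supports no claim, and no test of it was made. Of the 2053 genes with at least 1000 EGFP- counts, these were 4.04%.

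Both libraries came from spinal cords of the line Xla.Tg(Dre.gfap:EGFP)Larra at NF stage 50, a larval stage that regenerates its spinal cord, and the labels name no injury. The EGFP- sample (genotype label GFAP::EGFP-) and the EGFP+ sample (GFAP::EGFP+) were each sequenced as 1 library from sorted cells of pooled animals, so a difference between the populations could not be checked against replicates. Cells of intermediate fluorescence were discarded at the sort. The methods speak of EGFP+ and EGFP- animals as the source of the cords, and whether cells of animals without the transgene entered the EGFP- sort is not stated. The labels and the methods name different RNA kits, and the methods name no library kit. Total expected counts were 12242176 for EGFP- and 13705121 for EGFP+ cells, so by total counts the EGFP+ library was not the shallower of the pair. It had fewer genes above 0, with 28035 against 30297 in the EGFP- library. EGFP itself had 89 EGFP- and 3376 EGFP+ counts, a CPM that was 33.9-fold higher in EGFP+ cells (95% Clopper-Pearson interval 27.5 to 42.3), the direction that the labels name. All intervals cover counting error alone, because there was 1 library of each population. They take every count as separate, but reads copied by amplification need not stand for separate molecules, so the intervals can be too narrow.

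In zebrafish, GFAP is used by radial glia, cells that line the central canal, reach the outer surface of the cord and include neural stem and progenitor cells. Beside size and granularity, the EGFP- gate is defined by a lack of signal and not by a marker, so it takes cells in which the reporter is silent, which in a spinal cord can be neurons, oligodendrocytes and cells of vessels, blood and meninges. Progenitors can be among them too, since the paper reports that some cells with the progenitor marker Sox2 lacked EGFP. In RNA of sorted populations, fewer cells of a type and less RNA per cell cannot be told apart. The files identify genes by numbered identifiers without names. Of the 83 identifiers, 0 matched the RefSeq gene table of assembly Xenopus_laevis_v10.1, and of all 45100 listed genes 0 did. Neither gene functions nor marker lists could therefore be applied, and the labelled tissue could not be checked against marker genes. Besides EGFP, only the 2 identifiers fixed by rule are printed: the depleted gene with the most EGFP- counts and, of the 8 tied at a ratio of 0, the one with the most EGFP- counts. A ratio of 0 has only an upper limit, so which gene is the most depleted is not established. The others are given by their rank in EGFP- counts.

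The depleted genes held 1102424 EGFP- counts, 9.01% of that library (95% interval 8.99 to 9.02%). In the EGFP+ library they held 7365 counts, 0.0537% of it (95% interval 0.0525 to 0.0550%). As a sum they were 168-fold lower in the EGFP+ library (95% interval 164 to 171). Their single values ran from 1023 to 441913 EGFP- counts (median 1852) and from 0 to 977 EGFP+ counts (median 30). The highest of them in the EGFP+ library ranked 2645 among all genes there. No depleted gene reached in the EGFP+ library the 1000 counts that each had in the EGFP- library. For all but the most abundant of them, the rule itself fixed this in advance.

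**Figure D1:**
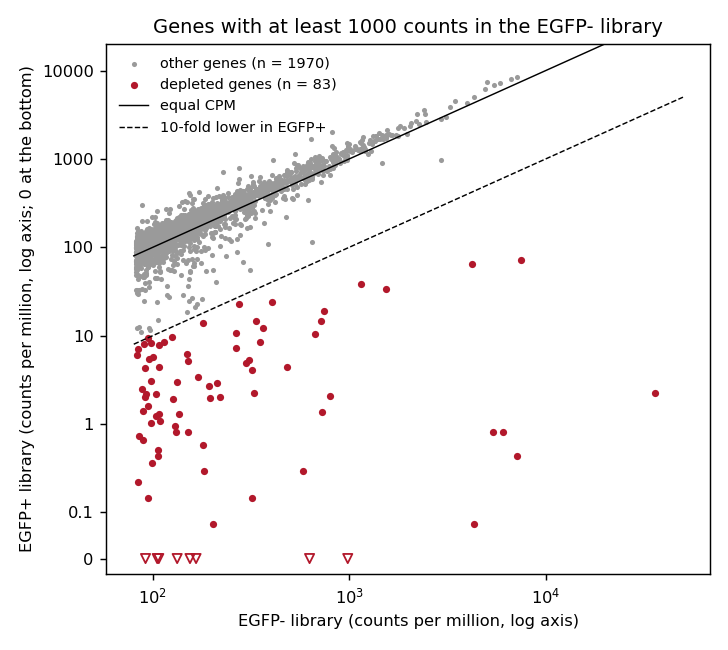
CPM of the 2053 genes with at least 1000 EGFP- counts in the EGFP- library (x axis, log) and the EGFP+ library (y axis, log, with 0 drawn at the bottom), 1 point per gene and 1 library per axis. The 83 depleted genes (red) lie under the dashed line of a 10-fold lower level, 8 of them at 0 (triangles), while most of the other 1970 genes (grey) follow the line of equal CPM.

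Most abundant genes did not differ in this way. Of the 2053 genes with at least 1000 EGFP- counts, 1872 had a ratio between 0.5 and 2, and their overall median ratio was 1.14. At a ratio of 0.5 or less were 152 genes, of which the 83 depleted genes made up more than the 69 that lay between 0.1 and 0.5. At the other end, 29 genes had a ratio of at least 2, and the highest ratio was 3.46. In the opposite direction, of 2587 genes with at least 1000 EGFP+ counts, 1 (0.0387%) had an EGFP- level 10-fold or more below its EGFP+ level, and it was EGFP. Because the depleted genes take 9.01% of the EGFP- counts, they also shift the other genes on the CPM scale: with the depleted genes left out of both totals, the median ratio of the 2053 genes moved from 1.14 to 1.04.

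The share of genes with a ratio of 0.1 or less was read along the abundance scale. Of the 24177 genes with at least 10 EGFP- counts, 6.95% were that low. It was 11.7% (1160 of 9957 genes) from 10 to under 100 EGFP- counts, where a few counts decide the ratio, and 3.59% (437 of 12167 genes) from 100 to under 1000. Within the abundant genes it was 3.65% from 1000 to under 2000 counts, 3.85% from 2000 to under 5000 and 4.10% from 5000 to under 20000. Among the 35 genes with at least 20000 EGFP- counts, 7 were depleted (20%), and these 7 held 44.1% of the counts of that class. The depleted genes included 5 of the 10 genes with the most EGFP- counts, 7 of the first 20 and 10 of the first 100. Their share was thus nearly level from 100 to 20000 counts and higher among the few most abundant genes.

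The counts were concentrated in a small number of depleted genes. The first, Xelaev18045099m.g, was the gene with the most counts of the whole EGFP- library. It had 441913 EGFP- counts, 3.61% of the library (95% interval 3.60 to 3.62%), and 31 EGFP+ counts. Its CPM was 15959-fold lower in the EGFP+ library (95% interval 11243 to 23488), a log2 ratio of -13.91 with a pseudocount of 1. The first 3 depleted genes held 56.3% of the EGFP- counts of all 83, the first 7 held 78.5% and the first 20 held 89.3%, whereas 43 genes had fewer than 2000 EGFP- counts each. Levels of different genes can be compared per length in TPM, a length-corrected share of all transcripts, which the authors deposited beside the counts. On that scale the 83 genes took 19.0% of the EGFP- total against 0.0326% of the EGFP+ total, and Xelaev18045099m.g alone stood at 89250 TPM against 6.46 TPM. Per length, the depleted genes as a sum thus took a larger share of the EGFP- library than in counts. Most of it lay in 11 genes described below, with 17.3% of the TPM and 6.12% of the counts. The larger share per length did not extend to the other 72 genes, which held 2.89% of the counts.

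**Figure D2:**
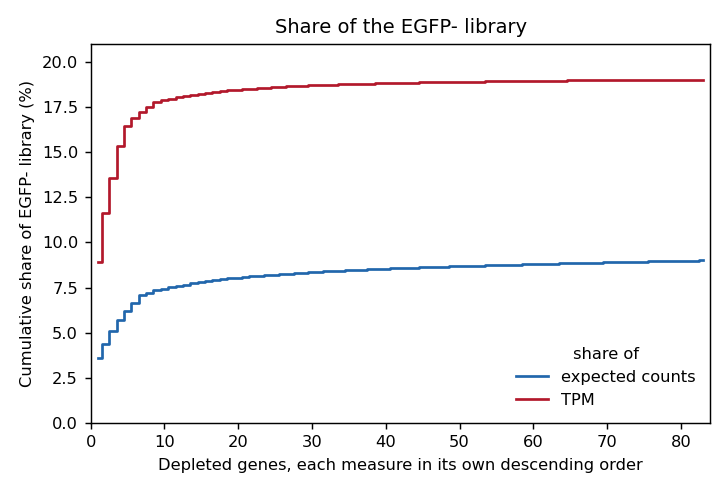
Cumulative share of the EGFP- library (y axis, %) over the 83 depleted genes (x axis), with each measure in its own descending order, for expected counts (blue) and TPM (red). Both curves rise steeply over the first few genes and end at 9.01% of the counts and 19.0% of the TPM.

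The depletion covered several orders of magnitude. The median ratio was 0.0138, which is 72.6-fold lower, and the middle of the distribution ran from a ratio of 0.00292 (342-fold lower) to 0.0324 (30.9-fold lower) at its quartiles. Between 10- and 20-fold lower were 13 genes with a median of 1234 EGFP- counts, together 0.185% of the EGFP- library. Between 20- and 100-fold lower were 34 genes with 1.40% of the library, and between 100- and 1000-fold lower were 20 genes with 1.17% of it. Over 1000-fold lower, with at least 1 count in the EGFP+ library, were 8 genes, and these alone held 6.01% of the EGFP- library. A further 8 genes, with 0.237% of the library, were listed at 0 in the EGFP+ library. The largest measured folds were thus seen in few genes, which carried most of the counts. The EGFP- count of a gene limits the fold that can be measured for it. Among the 8 genes over 1000-fold lower, the lowest EGFP- count was 2483. Depth and abundance were therefore not measured independently of each other.

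For the 8 genes at 0 the ratio has only an upper limit. A count of 0 allows up to 3 counts, a share of 2.19e-05% of the EGFP+ library. Against these 3 counts, a one-sided limit, the genes were from at least 419-fold to at least 4489-fold lower. The largest bound belonged to Xelaev18045080m.g, the depleted gene at rank 10 by abundance, with 12029 EGFP- counts against 0, and the two-sided 95% interval of its ratio, which is wider, reached up to 2.74e-04 (3650-fold lower). Another 5 genes had 1 to 3 EGFP+ counts, and their ratios are known only within wide limits: the gene at rank 6, with 52889 EGFP- counts against 1, was 59209-fold lower with a 95% interval from 10626 to 2338684. The upper 95% limit of the ratio lay at or below 0.1 for 79 of the 83 genes, and for 4 genes it reached past 0.1.

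**Figure D3:**
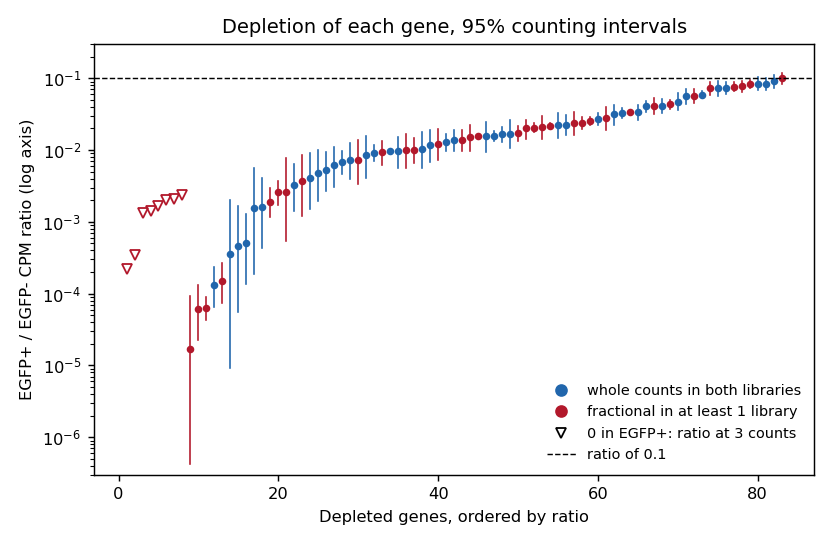
EGFP+ to EGFP- CPM ratio (y axis, log) of the 83 depleted genes in order of ratio (x axis), with 95% Clopper-Pearson intervals as lines. Genes at 0 in the EGFP+ library are open triangles at the ratio that 3 counts would give. Genes with whole counts in both libraries (blue) run from 1.33e-04 to 0.0902. Above 0, genes with fractional counts in at least 1 library (red) run from 1.69e-05 to 0.0998.

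The genes nearest to the thresholds were as follows. The gene just inside the ratio of 0.1 had 1155 EGFP- and 129 EGFP+ counts, a ratio of 0.0998 (95% interval 0.0825 to 0.120), and the next had a ratio of 0.0902. Just outside, 1186 against 160 counts gave a ratio of 0.121 (95% interval 0.102 to 0.142), followed by a gene at 0.123. By counts, the last genes inside had 1023 EGFP- counts against 83 and 1030 against 3, and the first with fewer counts and a ratio of 0.1 or less had 969 against 40 and 959 against 15.1. The interval of the gene just inside the ratio of 0.1 thus overlapped that of the gene just outside.

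Among the most abundant depleted genes, a group close to 0 in the EGFP+ library stood beside a group with a clear residue there. The second gene had 91420 EGFP- and 977 EGFP+ counts, 105-fold lower (95% interval 98.4 to 112). The seventh, with 51444 against 897 counts, was 64.2-fold lower (95% interval 60.1 to 68.7). The eighth, with 18895 against 462 counts, was 45.8-fold lower (95% interval 41.7 to 50.3), and the ninth, with 14126 against 530 counts, 29.8-fold lower (95% interval 27.4 to 32.6). These 4 genes held 38.9% of all EGFP+ counts of the depleted genes. By contrast, the gene at rank 3 had 87144 counts against 6, that at rank 4 had 74111 against 11 and that at rank 5 had 66255 against 11. For a comparable EGFP- level, the second gene thus kept far more EGFP+ counts than the one at rank 3.

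Most of the genes with the deepest depletion lay close together in the numbering of the identifiers, a property that the rule did not use. Depleted genes at most 15 numbers apart were joined into chains, a distance chosen after the values were seen, and the chains with the most counts are called runs here. The sources used here do not state whether the numbers follow the position of genes on chromosomes, so only the order of the identifiers is described. The first run went from Xelaev18045080m.g to Xelaev18045099m.g, which spans 20 numbers, and held 5 depleted genes: those at ranks 1, 3, 4 and 10 by abundance and a gene with 1893 EGFP- counts against 0. Together they had 617090 counts against 48. The second run spanned 14 numbers and held 6 depleted genes, among them those at ranks 5 and 6 by abundance, with 131806 counts against 12 in all. The other 4 genes of the second run had 7688, 2032, 1629 and 1313 EGFP- counts and 0 EGFP+ counts. The 11 genes of both runs thus included 5 of the 6 most abundant depleted genes. The runs were picked for their EGFP- counts, so their abundant genes and large share of counts follow in part from that choice.

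Summed, these 11 genes held 6.12% of the EGFP- counts (95% interval 6.10 to 6.13%), which is 67.9% of the counts of all depleted genes, and 17.3% of the EGFP- library in TPM. In the EGFP+ library they had 60 counts. Their pooled ratio was 7.16e-05 (95% interval 5.46e-05 to 9.21e-05), a 13973-fold lower level. The ratio was 6.95e-05 in the first run (95% interval 5.12e-05 to 9.21e-05) and 8.13e-05 in the second (95% interval 4.20e-05 to 1.42e-04), and these intervals overlap. Of the 11 single intervals, 10 held the pooled ratio, and 1, that of the gene at rank 5 with a ratio of 1.48e-04, lay above it. Since 6 of the 11 genes were at 0, where every interval begins at 0, the spread of ratios within the runs is poorly bounded at this depth.

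The 72 depleted genes outside the runs held 353528 EGFP- counts (2.89% of the library) and 7305 EGFP+ counts, a pooled ratio of 0.0185 (95% interval 0.0180 to 0.0189) that is 54.2-fold lower. Their median ratio was 0.0163. Of their single intervals, 16 held the pooled ratio, 29 lay below it and 27 above it. The runs were picked with their ratios in view, so their distance from the other 72 genes is a description.

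Within the runs, depleted genes alternated with genes of other ratios. In the first run, the 14 listed genes that did not meet the rule included 5 with 0 EGFP- counts and 9 with at least 10. Of these 9 genes, 4 were at least 10-fold lower and at 0 in the EGFP+ library, with 916, 804, 40 and 29.1 EGFP- counts. The other 5 lay next to each other in the middle of the run. They had 21 to 187 EGFP- counts and ratios from 0.397 to 1.11. In the second run, 8 listed genes did not meet the rule, and 3 of the 5 with at least 10 EGFP- counts were at 0 in the EGFP+ library (91, 15 and 14 EGFP- counts). The remaining 2, again neighbours, had ratios of 0.906 and 1.49. Both runs thus held an inner block of genes with few counts that were present in both libraries.

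**Figure D4:**
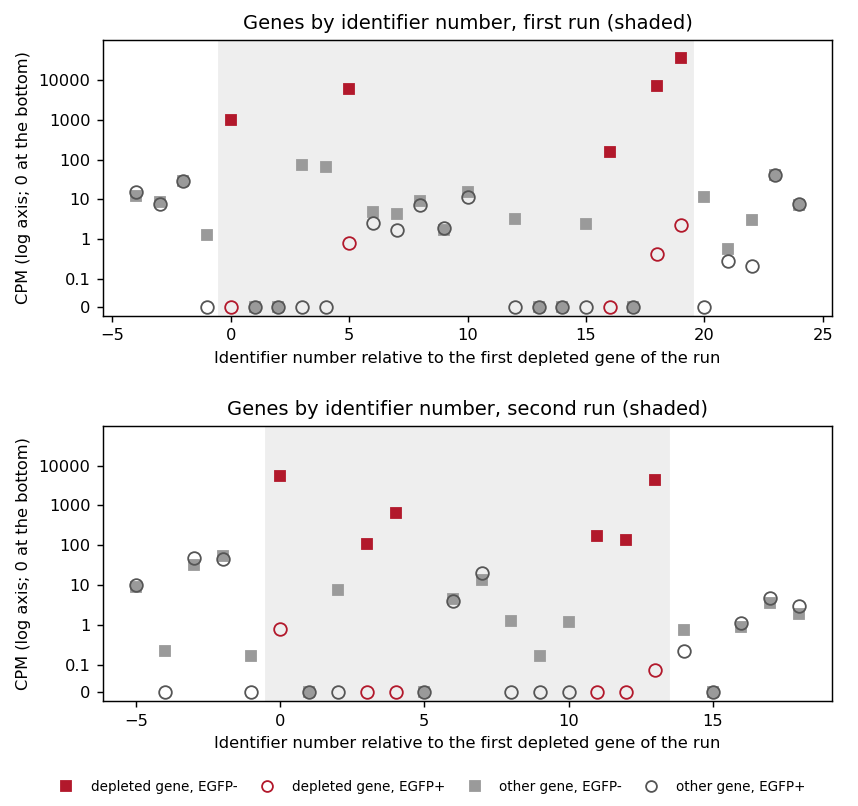
CPM (y axis, log, with 0 at the bottom) of the genes in and beside the runs of identifiers (shaded), by identifier number relative to the first depleted gene of the run (x axis), in the EGFP- library (filled squares) and the EGFP+ library (open circles). The 11 depleted genes (red) stand between 107 and 36098 CPM in the EGFP- library and at most at 2.26 CPM in the EGFP+ library, while the inner blocks of other genes (grey) have counts in both, at ratios from 0.397 to 1.49.

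Outside these runs, other depleted genes also had a depleted gene within 15 numbers. Counted together with the runs, 27 of the 83 genes fell into 10 such chains. In the same count, 11 genes had a depleted gene at the very next number, several of them within the runs. The same count for other abundant genes is not given here, so how unusual such closeness is was not tested. The second most abundant gene (91420 against 977 counts, ratio 0.00955) was chained to a gene with 1666 against 18 counts, at a ratio of 0.00965. In another pair, 3894 against 56 counts and 2593 against 40 counts gave ratios of 0.0128 and 0.0138. A pair of genes with 1289 and 1124 EGFP- counts was at 0 in the EGFP+ library for both. Their upper 95% limits were 0.00256 and 0.00294, so whether their ratios were alike is not known. In other pairs the point estimates lay further apart. In 1 pair the ratios were 4.56e-04 (3922 against 2 counts) and 0.00532 (1847 against 11 counts), and in another 0.00189 (8855 against 18.8 counts) and 0.00689 (4021 against 31 counts). In the remaining pairs they were 0.00259 and 0.0119, 0.00925 and 0.0226, and 0.0123 and 0.0210. For the last pair the 95% intervals overlapped (0.00725 to 0.0195 and 0.0141 to 0.0302).

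The genes next to a depleted gene in number were also read when they had fewer than 1000 EGFP- counts themselves, so that the rule had not used them. Of 72 such genes with at least 10 EGFP- counts, 23 (31.9%) had a ratio of 0.1 or less, and 13 of them were at 0 in the EGFP+ library. Beside depleted genes of neither run it was 17 of 65 genes (26.2%). Among all genes with 10 to under 1000 EGFP- counts the share was 7.22% (1597 of 22124), and beside the other abundant genes it was 5.34% (107 of 2003). The median ratio of the 72 genes was 0.81, so most neighbours of depleted genes were not depleted. The sets were not matched for EGFP- counts, on which the share depends: it was 11.7% from 10 to under 100 counts and 3.59% from 100 to under 1000. Whether neighbours shared reads with the depleted genes beside them was not tested. These shares describe 1 pair of libraries, and genes are not independent replicates.

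The length of the genes was likewise not used by the rule. An effective length, the number of positions at which a sequenced fragment can start, was computed from the expected count and the FPKM (fragments relative to gene length and library total) of the EGFP- library for all 2053 abundant genes. The depleted genes had a median of 3144 bases (quartiles 1213 and 4861) and the other 1970 a median of 2858 bases (quartiles 1712 and 4852). The medians thus differed little, but the short end was more populated: 12 of the 83 depleted genes (14.5%) and 88 of the 1970 others (4.47%) had an effective length under 600 bases. Of these 12 short genes, 11 were the genes of the runs, with 314 to 581 bases, and the other was a gene with 1124 EGFP- counts against 0. Outside the runs, 1 of the 72 depleted genes was thus this short, and their median was 3559 bases. The excess at the short end lay in the runs and not in the other depleted genes.

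At this limit of 600 bases, short and abundant genes fell into separate sets. Of the 100 genes with at least 1000 EGFP- counts and under 600 bases, the 12 depleted genes had ratios of at most 1.48e-04, by point estimate and with 7 of them at 0. The other 88 had ratios of at least 0.51, with a median of 1.09. No short gene lay between these values. Just past the limit, however, a depleted gene with 605 bases had a ratio of 0.0272 (3254 against 99 counts). The gap thus depends on where the limit was put. The median ratio of the depleted genes was 0.0101 from 600 to under 1500 bases (11 genes) and 0.00965 from 1500 to under 3000 bases (17 genes). It was 0.0202 from 3000 to under 6000 bases (34 genes) and 0.0226 from 6000 bases (9 genes). These medians lay above the ratios of the 12 short genes, most of which were genes of the runs. They did not rise at every step of length, and the ranges of these classes overlapped. A trend of ratio with length was not tested. The depleted genes were 3.32% of the abundant genes from 600 to under 1500 bases, 2.64% of the next class, 5.47% of the class from 3000 bases and 2.52% of the longest.

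**Figure D5:**
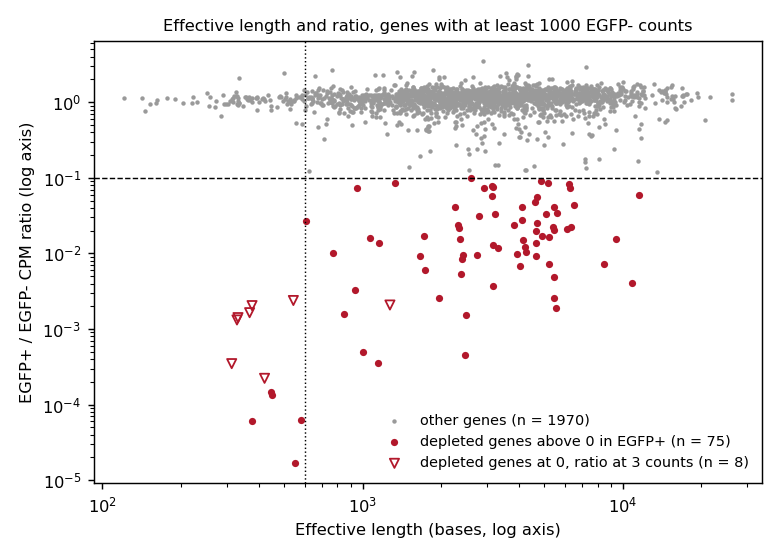
Effective length in bases (x axis, log) and EGFP+ to EGFP- CPM ratio (y axis, log) of the 2053 abundant genes, with depleted genes in red and the 8 at 0 as triangles at the ratio that 3 counts would give. Left of the dotted line at 600 bases, the 12 depleted genes are far below the other 88, which have ratios of at least 0.51.

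*X. laevis* is allotetraploid, and many of its genes exist as homologous L and S copies. When a read matches more than 1 gene, RSEM divides it among them, which leaves expected counts that are not whole, whereas a whole count is what a gene has when no read was split. A value was taken as whole when it lay within 0.005 of a whole number. Of the 83 depleted genes, 41 (49.4%) had whole counts in both libraries, and of the other 1970 abundant genes 779 (39.5%). In the EGFP- library alone, where the rule sets no small counts, the shares were 50.6% (42 genes) and 44.9% (885 genes). In the EGFP+ library, 71 of the depleted genes (85.5%) and 955 of the others (48.5%) were whole. The rule keeps the counts of depleted genes low there, and 13 of all 83 had at most 3. Of the 41 genes not whole in the EGFP- library, 21 were within 0.1 of a whole number. How many reads of a gene were shared cannot be read from the decimals.

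Genes with whole counts had nearly the same median ratio as the others, but the lowest ratios belonged to genes with fractional counts. The 41 whole genes had ratios from 1.33e-04 to 0.0902 with a median of 0.0138, and the 42 others from 0 to 0.0998 with a median of 0.0131. The whole genes included the gene at rank 2 (91420 against 977 counts) and that at rank 4 (74111 against 11 counts, 7542-fold lower, 95% interval 4215 to 15110). They also included the gene with 7149 against 4 counts, the gene with 3922 against 2 and the gene with 2483 against 1. All 8 genes at 0 in the EGFP+ library had fractional EGFP- counts, and so had Xelaev18045099m.g. In counts the division was uneven: the whole genes held 259468 EGFP- counts, 2.12% of that library, and the fractional ones 842956 counts, 6.89%. Most of the counts of the depleted genes thus belonged to genes with fractional counts, 10 of the 11 genes in the runs included. For these genes, the division of reads that match more than 1 gene is uncertain.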

How the data were processed

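RNA of sorted EGFP+ and EGFP- spinal cord cells was measured in 1 library each, grouped by the genotype label. The authors aligned paired-end reads with Bowtie 1.2.2, using XL_9.1_v1.8.3.2 as transcriptome, and estimated gene levels with RSEM 1.3.0 (base calls by CASAVA 1.8.2, per the labels). The authors deposited RSEM's expected counts without normalization, TPM scaled to gene length and a fixed total, and FPKM scaled to gene length and mapped fragments. No filter is stated, and genes at 0 are listed.

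Expected counts were divided by the library total in Python 3.11.15. Ratios have 95% Clopper-Pearson intervals (scipy 1.17.1) from rounded counts. With 1 library per population no p-value is given. A count of 0 was set to 3 counts for a bound on a fold, and genes with 1 to 3 counts are given as a ratio with its interval. Effective length was the expected count divided by FPKM and total. Alternatives were other scalings (median of ratios, TMM of edgeR 4.0.16 in R 4.3.3, TPM), minimum counts, ratio limits and whole counts only. The procedure was run on simulated independent counts in which some genes had been lowered. The simulation held no reads shared between genes and no amplification copies, so it cannot speak to either.

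The 2 identifiers printed were set by a rule as the depleted gene with the most EGFP- counts and the one with the lowest ratio, with ties at 0 resolved by EGFP- counts. The rule for the depleted genes, and the cell type lists that could not be matched, were chosen with earlier results of these data known. Figures were drawn with matplotlib 3.10.9.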

Additional observations from a re-analysis of the deposited data

How the results depend on the processing

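No paired analysis was possible because there was a single library of each kind, and for the same reason none could be left out. The number of depleted genes stayed between 70 and 98 when the scaling was by median of ratios, TMM or TPM, when the ratio limit was 0.05 or 0.2, when the upper 95% limit had to be at most 0.1, or with the depleted genes out of the totals (chosen after seeing the data). It was 151 with a minimum of 500 EGFP- counts, 40 with 2000, 1680 with 10, and 41 for genes with whole counts only. Of these genes, 82, 17 and 1346 had whole counts in both libraries for the minimums of 500, 2000 and 10. The share of EGFP- counts was 9.39%, 8.54% and 10.3% for these minimums, 9.27% and 8.82% for ratio limits of 0.2 and 0.05, 8.99% with TPM, 8.97% with the upper limit and 2.12% for whole counts only. The share of EGFP+ counts was, in the same order, 0.0653%, 0.0410%, 0.0931%, 0.0962%, 0.0401%, 0.0520%, 0.0505% and 0.0235%. These changes follow from which genes each setting admits. With whole counts within 0.05 in place of 0.005, 55 of the 83 genes were whole. The log2 ratio of Xelaev18045099m.g stayed between -13.96 and -13.54 under other pseudocounts and scalings, and that of Xelaev18045080m.g, at 0 in the EGFP+ library, ran from -16.96 to -10.32. With neighbours within 1, 5 or 30 identifier numbers, chosen after seeing the data, 11, 19 and 28 depleted genes were chained. No matching count for other genes is given. Depth limits the low end, where 3 counts are 0.219 CPM in the EGFP+ library.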
